A study of Mus musculus with 12 samples.

Results

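The NRF2 antioxidant targets described here are 10 mouse genes, Nqo1, Hmox1, Gclc, Gclm, Txnrd1, Srxn1, Slc7a11, Ugdh, Ephx1 and Osgin1. They were taken by symbol from 19012 gene symbols, with the longest transcript kept where a symbol has several. RNA sequencing values were compared among 4 DKO tumors, 4 DKO livers and 4 wild-type livers. DKO tumors are liver tumors, and DKO livers are liver tissue, of mice with the E2F7/8 DKO genotype (double knockout of the atypical repressors E2f7 and E2f8). Wild-type livers are liver tissue with the wt genotype. The promoter or cell type of the deletion, the age, the sex, the strain and the cause of the tumors are not given in the sources used here. DKO tumor and DKO liver of the same number carry the same animal code in the headers, so DKO livers came from tumor-bearing mice. Loss of E2f7 and E2f8 and the presence of a tumor therefore cannot be told apart in them.

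NRF2, encoded by Nfe2l2, is a transcription factor that pairs with small MAF proteins and binds antioxidant response elements. In unstressed cells KEAP1 holds NRF2 and hands it to a CUL3 ubiquitin ligase for destruction, and electrophiles or oxidants that modify KEAP1 let NRF2 accumulate. In liver its targets make glutathione, reduce thioredoxin, peroxiredoxins and quinones, break down heme and prepare foreign compounds for conjugation. Many of these genes also answer to other factors, so their level alone does not read out NRF2.

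None of the 9 members high enough to be tested passed the test across all genes in any of the 3 comparisons. Slc7a11 was too low to be included in it. The genes did not behave alike. Osgin1 and Hmox1 stood higher in all DKO livers than in all wild-type livers, and Osgin1 was also higher in all DKO tumors than in all wild-type livers. Of all tested genes 5.62% were higher without overlap in DKO livers, and 5.57% in DKO tumors, against wild-type livers. Srxn1 and Ugdh were 3.21 and 2.54 times as high in 1 DKO tumor as in the next library. Gclm and Txnrd1 had close means in the 3 groups, and Nqo1 was low throughout.

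Forms of the sequence that NRF2 and small MAF proteins bind were looked for in the promoter windows of RefSeq genes. A window runs from 250 bases before to 50 bases after a gene start, on GRCm38.p6, which is a later build than the mm9 of the expression data. Of the 10 members, 8 have a window, with 10 windows in all; Hmox1 and Gclc have none in the table. The antioxidant response element core TGACNNNGC, read on both strands, occurs in 4 of these 10 windows, those of Srxn1, Gclm, Ugdh and 1 of the 3 Txnrd1 starts. It occurs in 12.392% of all 32851 windows. Another form, TGANTCAGC, fixes more letters but is not a subset of the core, since it leaves free the letter after TGA. It was added after the Osgin1 window had been read. This form occurs in the windows of Srxn1 and Osgin1 and in 1.187% of all windows. The forms can match the same bases, and in the member windows they did not. The windows of Nqo1, Ephx1 and Slc7a11 held neither form. The E2F motifs TTTCCCGC, TTTGGCGC, TTTCGCGC and TTTGCCGC occur in 0 of the 10 member windows and in 2.265% of all windows. The stretches around the matches follow, on the strand of the gene, with the match in capitals; a match on the other strand appears as its reverse complement. A match is a description of letters and not a measured binding site.
Osgin1 (chr8:119437028-119437076): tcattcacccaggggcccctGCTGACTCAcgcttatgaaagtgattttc
Srxn1, before the start (chr2:152105459-152105507): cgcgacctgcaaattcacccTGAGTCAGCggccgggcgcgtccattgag
Srxn1, after the start (chr2:152105542-152105570): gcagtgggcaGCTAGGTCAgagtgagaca
Ugdh (chr5:65435908-65435994, minus strand): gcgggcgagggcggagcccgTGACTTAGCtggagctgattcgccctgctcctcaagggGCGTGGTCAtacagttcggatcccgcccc
Gclm (chr3:122245403-122245451): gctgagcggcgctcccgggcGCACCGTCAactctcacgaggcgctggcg
Txnrd1, middle start (chr10:82859094-82859142): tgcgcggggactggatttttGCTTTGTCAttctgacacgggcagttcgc
Osgin1 and Srxn1 share the 9 letters TGAGTCAGC, on opposite strands, with the first base of the match 99 and 45 bases before the start. Ugdh holds 2 matches of the core, 132 and 94 bases before its start and on opposite strands.

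Levels are in RPKM, which scales a transcript's reads by its exon length and by the library's depth. Depth, recovered from the steps of the values, was 7.98 to 16.0 M reads. A filter of 0.5 RPKM, to be reached by 4 or more libraries, left 11351 genes with 9 of the members; Slc7a11 did not pass. Groups were compared with limma on log2(RPKM + 1), two-sided, with Benjamini-Hochberg adjustment over all 11351 genes at 0.05. Of 6 hepatocyte markers none was at 0 in any library. In DKO tumors against wild-type livers 2 had higher and 4 lower fitted levels (median log2 change −0.68), and in DKO livers against wild-type livers 3 had higher and 3 lower ones. Libraries stand apart in several ways. Arntl, a clock gene, was at 9.24 to 11.2 RPKM in the tumors and livers of DKO animals 1 and 2 and at 0.484 to 2.26 RPKM in the other 8 libraries. DKO liver 3 was the highest of the 12 libraries for 29.5% of the tested genes and DKO tumor 4 for 15.4%. The hepatocyte marker Alb was at 109387 RPKM in DKO tumor 1 and 98562 RPKM in DKO liver 4, and at 20689 to 94717 RPKM elsewhere. Median-of-ratios scaling gave these libraries the lowest factors, 0.762 and 0.920, against 0.939 to 1.29 elsewhere. DKO tumor 1 was lowest for Txnrd1 and Ugdh, and DKO liver 4 for Gclm and Ephx1. The other tested members were lowest in other libraries. The part of scaling in these low values was not tested. All DKO tumors carry the tag L03 in their header and all DKO livers L02, while wild-type livers 1 and 2 carry L02 and wild-type livers 3 and 4 L03; no source used here says what the tag stands for. E2f7 was at 0.0365 to 0.259 RPKM in DKO tumors, 0.211 to 0.400 RPKM in DKO livers and 0.103 to 0.200 RPKM in wild-type livers. E2f8 was at 1.66 to 12.2, 2.80 to 20.8 and 1.66 to 4.30 RPKM in the same groups, and since RPKM sums all exons these values do not check the deletions.

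**Figure D1:**
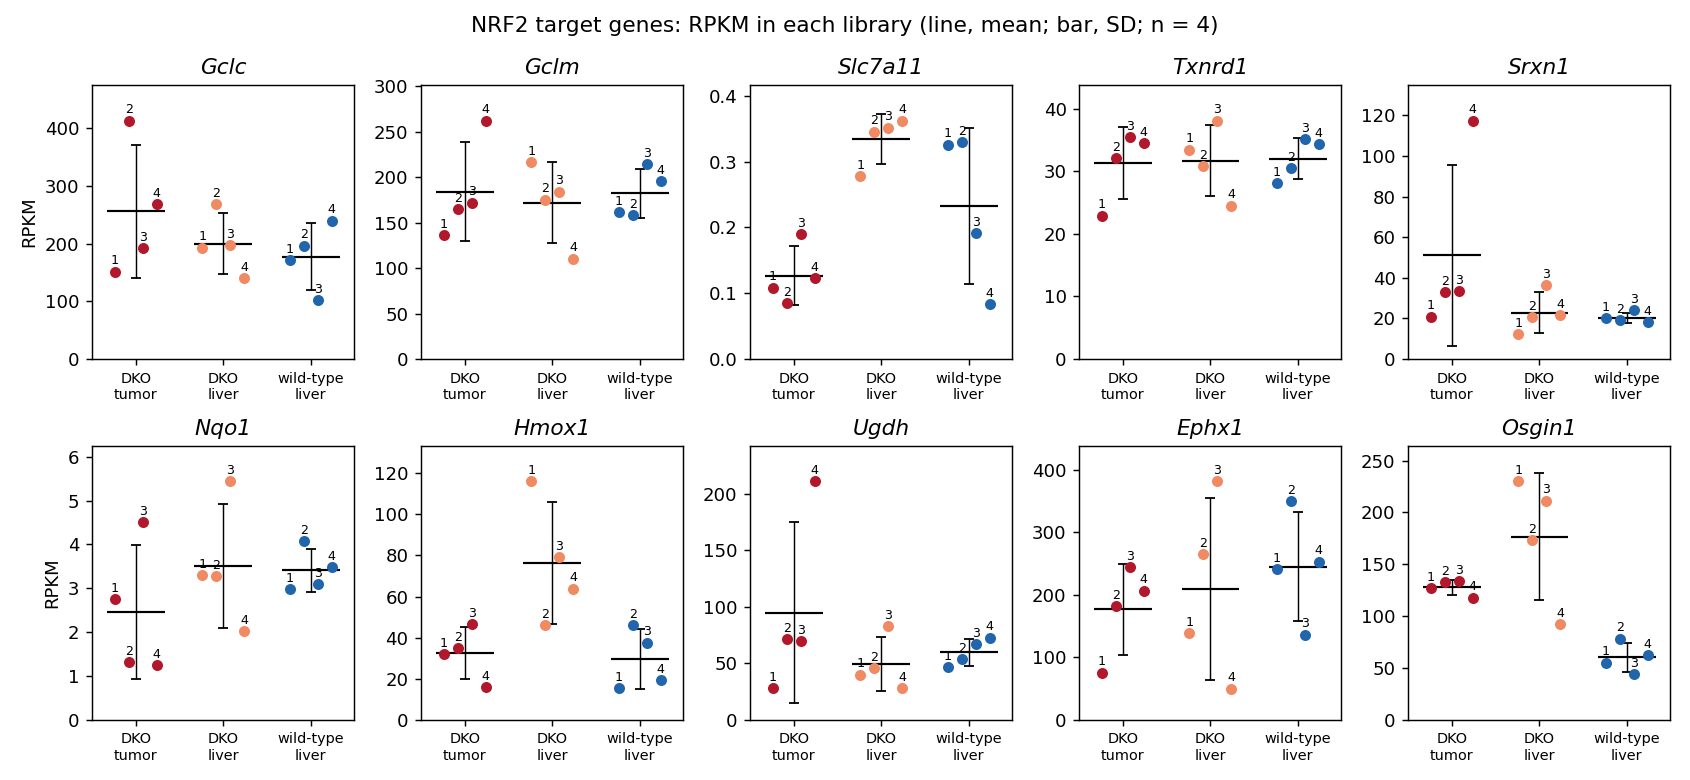
RPKM of each of the 10 genes (vertical axes, from 0) in DKO tumors, DKO livers and wild-type livers, with a point per library, its replicate number, and the mean and SD of 4. Osgin1 in DKO tumors (118 to 133 RPKM) lies above all wild-type livers (44.4 to 78.2 RPKM), and DKO tumor 4 stands alone for Srxn1 at 117 RPKM and Ugdh at 211 RPKM.

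By mean level per exon length, Gclc, Gclm, Ephx1 and Osgin1 led in DKO tumors, with means from 128 to 256 RPKM, and the same genes led in DKO livers, with means from 172 to 209 RPKM. In wild-type livers Ephx1, Gclm and Gclc led with means from 178 to 245 RPKM, and their ranges all lay above Osgin1, whose mean was 60.1 RPKM. Ugdh, Srxn1, Hmox1 and Txnrd1 lay between 20.4 and 94.7 RPKM in all groups. Their order changed between the groups and neighbours overlapped, except that all wild-type values of Ugdh lay above those of Txnrd1. Nqo1 and then Slc7a11 were last in every group, without overlap with the gene above. Averaged over the 12 libraries, Ephx1 and Gclc were each higher than 97.7% of the tested genes, and Nqo1 was higher than 34.2%.

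In DKO tumors against wild-type livers, 0 of the 9 tested members passed with limma, against a background of 1.9% of all tested genes (1.23% higher and 0.67% lower). At an unadjusted limma p under 0.05 there were 2, Osgin1 and Srxn1, against 19.2% of all genes, and voom on recovered reads called 1, Osgin1. The groups did not overlap for 1 member, Osgin1, which was higher, where 5.57% of all genes were higher without overlap and 6.32% lower. The members' median log2 change was 0.17 and that of all tested genes −0.02. The members' median was −0.10 without DKO tumor 4, −0.07 without wild-type liver 1, −0.0024 without DKO tumor 3 and 0.02 without wild-type liver 4, so its sign rests on single libraries. The comparison of DKO tumors with DKO livers called 0 of 9 with limma (background 0.00881% of genes), 1 had an unadjusted p under 0.05 (Hmox1; 16.1% of all genes), and voom called 0. No tested member was free of overlap there (2.12% of genes higher, 4.08% lower), and the median was −0.01 against −0.09 for all genes. The fit with the animal as a block used only the 8 libraries of this comparison and also called 0 members. Over all genes it called 71, where the same 8 libraries without the block gave 55 and all 12 libraries gave 1. In the block fit 3 members had an unadjusted limma p under 0.05, as did 1954 of the 11351 genes. They were Hmox1, Nqo1 (log2 change −0.43, SE 0.18, adjusted p = 0.266), which was lower in the tumor than in the liver of every animal, and Srxn1 (0.91, SE 0.38, adjusted p = 0.284). In DKO livers against wild-type livers 0 of 9 passed with limma (background 0.0% of genes), 2 had an unadjusted p under 0.05 (Hmox1 and Osgin1; 12.4% of all genes), and voom called 0. Those 2 members were higher without overlap, as were 5.62% of all genes, and 1.96% were lower; the median was −0.01 against 0.08. DKO tumors and DKO livers cannot be told apart from the tags L03 and L02.

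**Figure D2:**
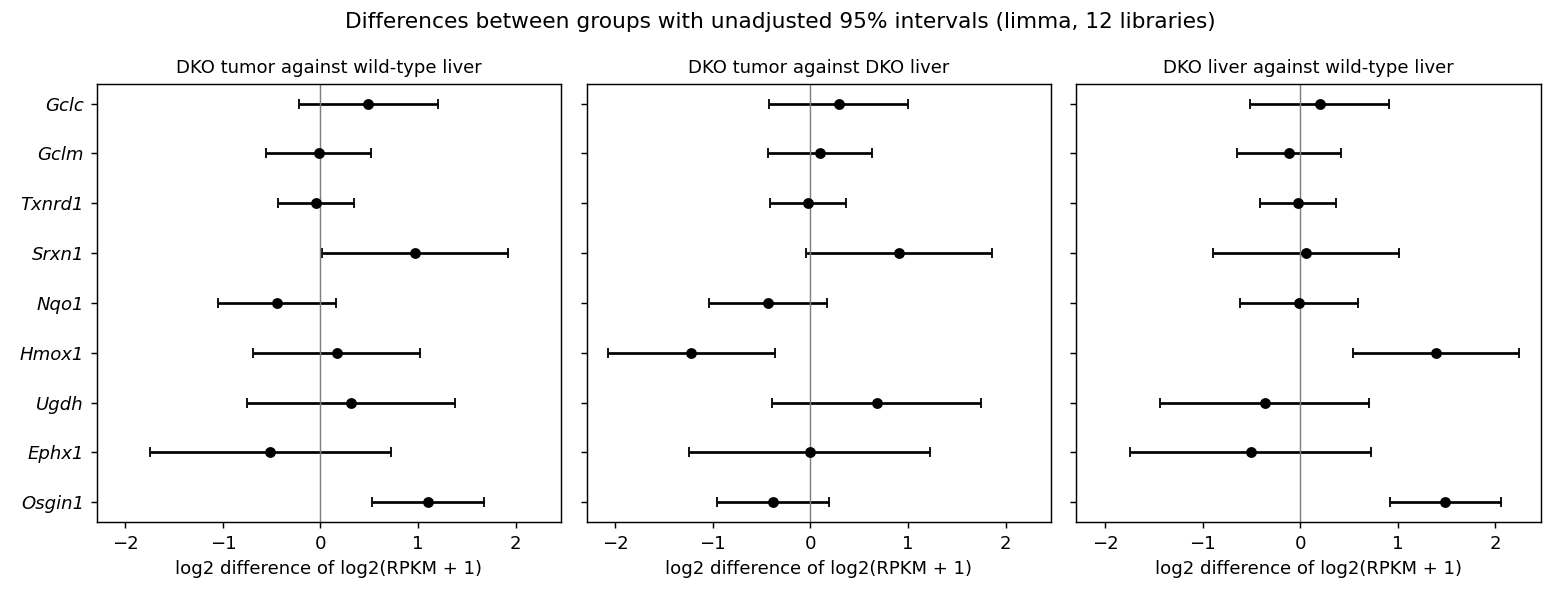
Fitted difference of log2(RPKM + 1) (horizontal axes) with its unadjusted 95% interval from limma over 12 libraries, for the 9 tested genes, in DKO tumor against wild-type liver, DKO tumor against DKO liver and DKO liver against wild-type liver. The intervals of Osgin1 in the left panel (0.53 to 1.67) and of Osgin1 (0.92 to 2.06) and Hmox1 (0.54 to 2.25) in the right panel lie above 0, as does that of Srxn1 in the left panel (0.0149 to 1.92). That of Hmox1 in the middle panel (−2.08 to −0.37) lies below 0, and none of these passed the adjusted test.

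Osgin1, oxidative stress induced growth inhibitor 1, lies on mm9 chromosome 8 from 121961061 to 121970155. It had 127, 132, 133 and 118 RPKM in DKO tumors 1 to 4, 229.9, 173, 211 and 92.0 RPKM in DKO livers 1 to 4, and 55.1, 78.2, 44.4 and 62.7 RPKM in wild-type livers 1 to 4. Every DKO library was above every wild-type library, and the tumors were close to each other. DKO liver 4, with its low scaling factor of 0.920, was the lowest of the DKO libraries. Mean RPKM was 128 ± 7.20 in DKO tumors, 177 ± 61.1 in DKO livers and 60.1 ± 14.2 in wild-type livers (SD, n = 4 each). For DKO tumors against wild-type livers the means stood 2.12-fold apart (log2 change 1.10, SE 0.27, limma adjusted p = 0.0514), just short of the threshold. That adjusted p ranged from 0.0148 to 0.235 over 24 alternatives and was under 0.05 in 8 of them, including those without DKO liver 1, 3 or 4. For DKO livers against wild-type livers the ratio of means was 2.94 (log2 change 1.49, SE 0.27, limma adjusted p = 0.166), and without DKO liver 4 it passed (1.77, adjusted p = 0.0129). DKO tumors and DKO livers overlapped (log2 change −0.39, SE 0.27, adjusted p = 0.494). Within tag L03, where 4 DKO tumors face 2 wild-type livers, the log2 change was 1.26 (adjusted p = 0.145), and within L02, where 4 DKO livers face 2 wild-type livers, it was 1.33 (adjusted p = 0.849). Without DKO animals 1 and 2 the log2 changes against wild-type livers were 1.08 in tumors and 1.23 in livers (adjusted p = 0.226 and 0.286).

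Hmox1 encodes heme oxygenase 1, which opens the heme ring and is strongly expressed in macrophages that clear red blood cells (mm9 chromosome 8, 77617520 to 77624483). It had 32.0, 34.9, 46.7 and 16.1 RPKM in DKO tumors 1 to 4, 116, 46.2, 79.1 and 63.8 RPKM in DKO livers 1 to 4, and 15.5, 46.1, 37.5 and 19.3 RPKM in wild-type livers 1 to 4. All DKO livers were above all wild-type livers, but DKO liver 2 and wild-type liver 2 were almost level, and tumors and wild-type livers shared the same range. Mean RPKM was 32.4 ± 12.6 in DKO tumors, 76.3 ± 29.7 in DKO livers and 29.6 ± 14.6 in wild-type livers (SD, n = 4 each). The log2 change was 1.39 in DKO livers against wild-type livers (SE 0.40, limma adjusted p = 0.285) and 0.17 in DKO tumors against wild-type livers (SE 0.40, adjusted p = 0.868). It was −1.22 in DKO tumors against DKO livers (SE 0.40, adjusted p = 0.170), and −1.22 with SE 0.30 and adjusted p = 0.121 with the animal as a block.

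Macrophage and Kupffer cell markers moved in the direction of Hmox1 in the comparisons with DKO livers, but not in DKO tumors against wild-type livers. The 10 markers summed to 71.3 to 259.9 RPKM in DKO tumors, 207 to 572 RPKM in DKO livers and 118 to 296 RPKM in wild-type livers, and no marker was at 0 in any library. In DKO tumors against DKO livers all 10 had lower fitted levels (median log2 change −1.43). Of these 7 had an unadjusted limma p under 0.05, as did 16.1% of all tested genes. In DKO livers against wild-type livers all 10 had higher fitted levels (median 0.73). In DKO tumors against wild-type livers 1 of the 10 had a higher fitted level and the others lower ones (median −0.84). There 2 had an unadjusted limma p under 0.05, as did 19.2% of all tested genes, and the log2 change of Hmox1 was 0.17. None passed the adjusted test in any comparison, in which 0 to 216 of all genes did. DKO liver 1 was highest both for Hmox1 and for the summed markers, and DKO tumor 4 was lowest for the markers and next to lowest for Hmox1. Other cell types moved as well. In DKO livers against wild-type livers all 7 stellate cell and fibroblast markers, all 6 endothelial markers and all 5 tested lymphocyte markers had higher fitted levels, with medians of 0.75, 0.52 and 0.36. In DKO tumors against DKO livers all 7 stellate cell and fibroblast markers had lower fitted levels (median −0.98). So had all 5 tested lymphocyte markers (−0.55) and the 2 tested neutrophil markers (−1.48). There 1 of 6 endothelial and 2 of 4 tested cholangiocyte markers had higher ones. In bulk tissue fewer cells of a type and less RNA per cell cannot be told apart, and the part of these cells in the Hmox1 and Osgin1 values was not tested.

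**Figure D3:**
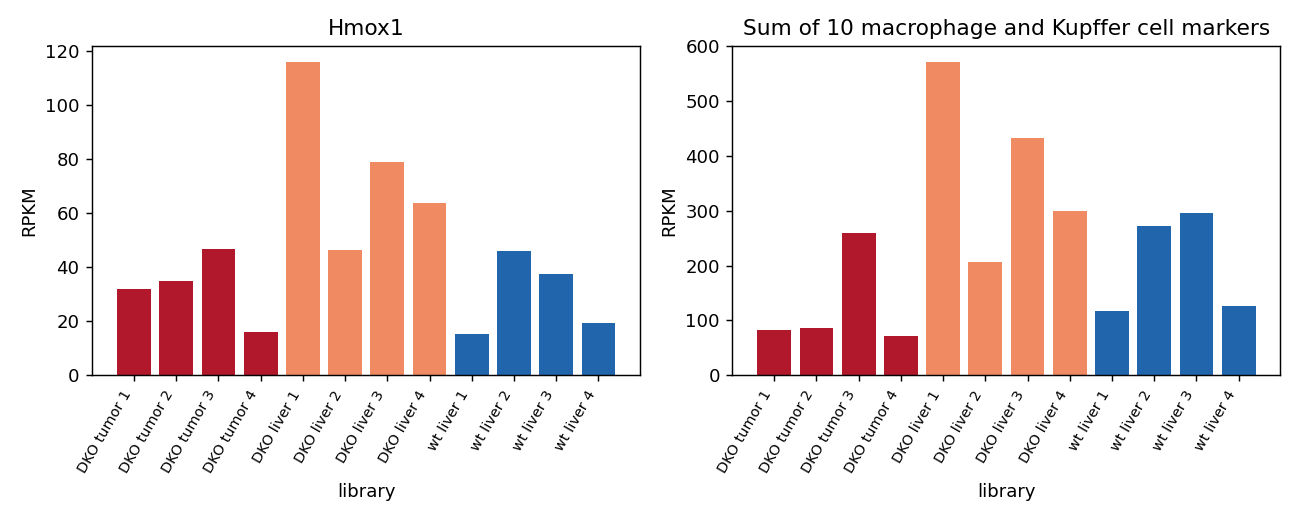
RPKM of Hmox1 (left) and the summed RPKM of 10 macrophage and Kupffer cell markers (right) in each library, as bars from 0, with DKO tumors in red, DKO livers in orange and wild-type livers in blue. DKO liver 1 is highest in both panels, at 116 RPKM for Hmox1 and 572 RPKM for the markers.

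Srxn1 encodes sulfiredoxin 1, which reduces overoxidized peroxiredoxins (mm9 chromosome 2, 151931465 to 151937088). It had 20.9, 32.9, 33.3 and 117 RPKM in DKO tumors 1 to 4, 12.2, 20.8, 36.6 and 21.5 RPKM in DKO livers 1 to 4, and 20.2, 19.3, 23.97 and 18.1 RPKM in wild-type livers 1 to 4. DKO tumor 4 was 3.21 times as high as the highest of the other 11 libraries, and without it the groups covered similar ranges. Mean RPKM was 51.1 ± 44.6 in DKO tumors, 22.8 ± 10.1 in DKO livers and 20.4 ± 2.54 in wild-type livers (SD, n = 4 each). The log2 change in DKO tumors was 0.97 against wild-type livers (SE 0.44, limma adjusted p = 0.255) and 0.91 against DKO livers (SE 0.44, adjusted p = 0.336). Without DKO tumor 4 these were 0.47 (adjusted p = 0.414) and 0.41 (adjusted p = 0.496). In DKO livers against wild-type livers the log2 change was 0.06 (SE 0.44, adjusted p = 0.961).

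Txnrd1 encodes the cytosolic thioredoxin reductase, a selenoprotein that passes electrons from NADPH to thioredoxin (mm9 chromosome 10, 82296695 to 82360468). It was the steadiest member, at 22.9 to 35.5 RPKM in DKO tumors, 24.5 to 38.1 RPKM in DKO livers and 28.1 to 35.2 RPKM in wild-type livers. Its highest library was 1.66 times its lowest. The unadjusted 95% interval of the log2 change ran from −0.44 to 0.34 in DKO tumors against wild-type livers, from −0.42 to 0.37 in DKO tumors against DKO livers, and from −0.42 to 0.37 in DKO livers against wild-type livers. The 4 Txnrd1 transcripts in the data have 3310 to 3634 bases of exon and differed little in level, with means over 12 libraries of 31.7 to 34.9 RPKM. All 4 lie over the same stretch and can count the same reads, so their levels are not separate measures.

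Gclc and Gclm encode the catalytic and the modifier subunit of glutamate cysteine ligase, which makes the first step of glutathione synthesis (mm9 chromosome 9, 77602616 to 77641457, and chromosome 3, 121948509 to 121969565). Gclc had 151, 413, 193 and 268 RPKM in DKO tumors 1 to 4, 193, 269, 198 and 141 RPKM in DKO livers 1 to 4, and 171, 197, 103 and 239.8 RPKM in wild-type livers 1 to 4. Gclm had 137, 165, 172 and 262 RPKM in DKO tumors 1 to 4, 217, 175, 184 and 111 RPKM in DKO livers 1 to 4, and 161, 159, 214 and 196 RPKM in wild-type livers 1 to 4. Different tumors were highest for each subunit, tumor 2 for Gclc and tumor 4 for Gclm, and all groups overlapped. The log2 change of Gclc was 0.49 in DKO tumors against wild-type livers (SE 0.33, limma adjusted p = 0.454), 0.29 against DKO livers (adjusted p = 0.705) and 0.20 in DKO livers against wild-type livers (adjusted p = 0.825). Without DKO tumor 2 the tumor values of Gclc were 0.22 against wild-type livers and 0.03 against DKO livers. Without wild-type liver 3 the changes against wild-type livers were 0.25 in DKO tumors and −0.04 in DKO livers. The log2 change of Gclm was −0.02, 0.10 and −0.12 in the same comparisons (SE 0.25 each, adjusted p = 0.978, 0.884 and 0.868), and the sign of its tumor changes flipped under other scalings or with the tag as a covariate. The ratio of Gclc to Gclm was 1.11, 2.51, 1.12 and 1.02 in DKO tumors, 0.890, 1.53, 1.07 and 1.27 in DKO livers, and 1.06, 1.24, 0.479 and 1.23 in wild-type livers. In two-sided exact permutation tests of its log2 value over 70 splits of 4 against 4 libraries, p was 0.514 for DKO tumors against wild-type livers, 0.657 for DKO tumors against DKO livers (0.375 when paired by animal, with 0.125 the smallest possible) and 0.457 for DKO livers against wild-type livers.

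Slc7a11 encodes the cystine and glutamate exchanger that brings in cystine for glutathione (mm9 chromosome 3, 50168857 to 50247534). It was barely detected, with 10 to 25 reads per DKO tumor, 31 to 40 per DKO liver and 11 to 39 per wild-type liver. It had 0.109, 0.0853, 0.189 and 0.123 RPKM in DKO tumors 1 to 4, 0.278, 0.346, 0.352 and 0.362 RPKM in DKO livers 1 to 4, and 0.326, 0.330, 0.191 and 0.0838 RPKM in wild-type livers 1 to 4. Every DKO tumor was below every DKO liver. Wild-type livers overlapped with both groups, and 3 of the 4 DKO livers were above all of them. In two-sided exact permutation tests on RPKM, p was 0.0286 for DKO tumors against DKO livers, the smallest that 70 free splits can give, 0.2 for DKO tumors against wild-type livers and 0.171 for DKO livers against wild-type livers. The free splits leave out that tumor and liver of a number share an animal. Slc7a11 was lower in the tumor in 4 of 4 animals, and the exact permutation test paired by animal gave p = 0.125, the smallest that 4 pairs can give, so that design cannot reach 0.05. With no filter on low values, limma gave an adjusted p of 0.135 for DKO tumors against DKO livers (log2 change −0.24 on the log2(RPKM + 1) scale, which understates changes at this level). The macrophage, stellate cell, lymphocyte and neutrophil markers described with Hmox1 had lower fitted levels in the same comparison. The part of these cells was not tested.

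Nqo1 encodes NAD(P)H quinone dehydrogenase 1, the enzyme most often measured to follow NRF2 (mm9 chromosome 8, 109912124 to 109927104). It had 2.75, 1.32, 4.51 and 1.24 RPKM in DKO tumors 1 to 4, 3.30, 3.28, 5.44 and 2.01 RPKM in DKO livers 1 to 4, and 2.99, 4.07, 3.09 and 3.49 RPKM in wild-type livers 1 to 4. DKO tumors 2 and 4 were the lowest libraries and DKO liver 3 the highest, and the groups overlapped. The log2 change was −0.45 in DKO tumors against wild-type livers (SE 0.28, limma adjusted p = 0.415), −0.43 in DKO tumors against DKO livers (SE 0.28, adjusted p = 0.464) and −0.01 in DKO livers against wild-type livers (SE 0.28, adjusted p = 0.985). Leaving out single libraries moved the first value between −0.71 (without DKO tumor 3) and −0.27 (without DKO tumor 4), and the second between −0.69 (without DKO tumor 3) and −0.24 (without DKO liver 3). By the root mean square difference of standardized log2(RPKM + 1) over the 12 libraries, the gene closest to Nqo1 outside the members was Abcc3, an export pump for conjugates that is itself listed among other NRF2 targets (0.425). It was followed by 1110051M20Rik (0.451), Tcf21 (0.461), Tmcc3 (0.474) and Arhgap15 (0.479). Such likeness is a description of 12 libraries that share animals, tags and depth.

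Ugdh encodes UDP-glucose dehydrogenase, which makes UDP-glucuronic acid for glucuronidation (mm9 chromosome 5, 65804460 to 65827080). It had 27.7, 71.2, 69.3 and 211 RPKM in DKO tumors 1 to 4, 40.0, 45.6, 82.9 and 28.2 RPKM in DKO livers 1 to 4, and 46.6, 53.5, 66.6 and 72.7 RPKM in wild-type livers 1 to 4. DKO tumor 4 was 2.54 times as high as the highest other library, and DKO tumor 1 was the lowest of all. The log2 change in DKO tumors was 0.31 against wild-type livers (SE 0.49, limma adjusted p = 0.791) and 0.68 against DKO livers (SE 0.49, adjusted p = 0.520). Without DKO tumor 4 these were −0.19 (adjusted p = 0.838) and 0.18 (adjusted p = 0.841), and without DKO tumor 1 they were 0.77 and 1.14. In DKO livers against wild-type livers the log2 change was −0.37 (SE 0.49, adjusted p = 0.779).

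Ephx1 encodes microsomal epoxide hydrolase, which opens epoxides of drugs and of the cell's own metabolites (mm9 chromosome 1, 182919686 to 182947625). It was at 75.4 to 245 RPKM in DKO tumors, 49.7 to 381 RPKM in DKO livers and 136 to 349 RPKM in wild-type livers. DKO liver 3 was the highest and DKO liver 4 the lowest library, so the whole range lay within 1 group. The log2 change was −0.51 in DKO tumors against wild-type livers (SE 0.57, limma adjusted p = 0.685), −0.01 in DKO tumors against DKO livers (SE 0.57, adjusted p = 0.997) and −0.51 in DKO livers against wild-type livers (SE 0.57, adjusted p = 0.724). The first of these was −0.15 without DKO tumor 1. The last was −0.91 without DKO liver 3 and 0.06 without DKO liver 4.

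**Figure D4:**
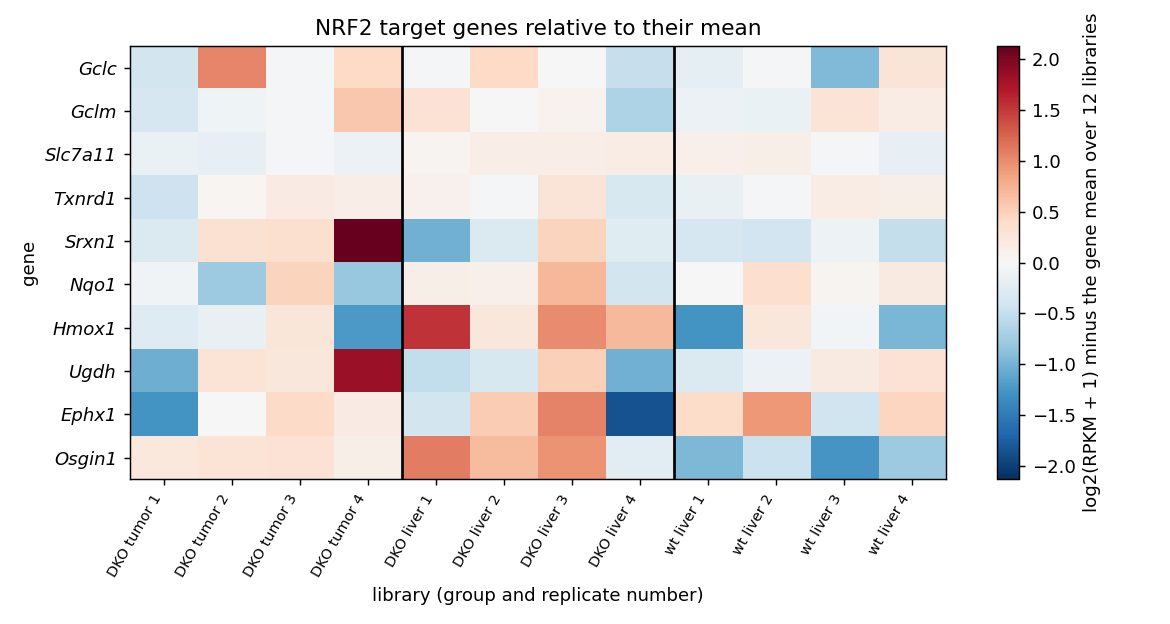
Log2(RPKM + 1) of each gene minus its mean over the 12 libraries (colour, red above and blue below), with genes in rows and DKO tumors, DKO livers and wild-type livers in columns from left to right. Srxn1 and Ugdh are high together in DKO tumor 4, where Hmox1 and Nqo1 are low, and Osgin1 is above its mean in all DKO libraries but liver 4.

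The members did not all follow 1 pattern over the libraries. By the same measure of likeness, Srxn1 and Ugdh were nearest to each other (0.586), as were Gclm and Txnrd1 (0.674) and Hmox1 and Osgin1 (0.876). Even so, 142 of the other tested genes (1.25%) were closer to Srxn1 than Ugdh was. For Osgin1, 754 genes (6.64%) were closer than Hmox1 was. Among the tested members apart from Nqo1, this share ran from 1.25% for Srxn1 to 9.31% for Hmox1. For Nqo1 the nearest member was Ephx1 (1.03), and 20.6% of the tested genes were closer.

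DKO tumor 4 was the highest library for 3 of the 9 tested members, Gclm, Srxn1 and Ugdh, and the lowest for Nqo1. It was also the highest for 7 of 24 tested genes among the other NRF2 targets and for 7 of 12 NRF2 regulators, beside 15.4% of all tested genes. DKO liver 3 was likewise the highest for 3 members, Nqo1, Txnrd1 and Ephx1, for 5 of the 24 other targets and for 2 regulators, beside 29.5% of all tested genes. Genes named next in this paragraph were chosen after their values were seen. Abcc4, an export pump for conjugates, was at 19.2 RPKM in DKO tumor 4 and at most 2.07 RPKM in the other libraries. Cyp2a5 was at 819.99 RPKM in DKO tumor 4 and at most 269 RPKM elsewhere, but it shares reads with its near-identical copy Cyp2a4. Sqstm1, encoding the autophagy receptor p62 that competes for KEAP1, was at 442 RPKM there and at most 327 RPKM elsewhere. In the same tumor Nqo1 was at 1.24 RPKM, Hmox1 at 16.1 RPKM and Ephx1 at 207 RPKM, none of them the highest of any group. Abcc3 and Akr1b8, from the same list as Abcc4, were at 8.59 and 1.84 RPKM in DKO tumor 4. For each of these genes that was the lowest of the 12 libraries.

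Among 12 NRF2 regulators none passed with limma in any comparison. At an unadjusted limma p under 0.05 there were 2 in DKO tumors against wild-type livers, 1 in DKO tumors against DKO livers and 0 in DKO livers against wild-type livers. The shares of all tested genes were 19.2%, 16.1% and 12.4% in the same comparisons. Nfe2l2, encoding NRF2 itself, had 27.6, 40.7, 48.4 and 36.6 RPKM in DKO tumors 1 to 4, 20.4, 27.4, 53.8 and 23.5 RPKM in DKO livers 1 to 4, and 19.4, 28.5, 23.9 and 31.9 RPKM in wild-type livers 1 to 4. The groups overlapped (log2 change 0.54 in DKO tumors against wild-type livers, SE 0.28, limma adjusted p = 0.306). Keap1 averaged 9.68 ± 2.25 RPKM in DKO tumors, 10.3 ± 2.24 in DKO livers and 9.39 ± 0.998 in wild-type livers (SD, n = 4 each; adjusted p = 0.964 for DKO tumors against wild-type livers). Bach1, a repressor of Hmox1, averaged 8.61 ± 2.56 RPKM in DKO tumors, 8.50 ± 1.05 in DKO livers and 9.87 ± 1.74 in wild-type livers. The small MAF gene Mafg averaged 11.2 ± 4.45, 12.6 ± 3.33 and 14.6 ± 1.94 RPKM in the same groups, and Mafk 5.08 ± 1.96, 3.96 ± 1.42 and 2.99 ± 1.27 RPKM (adjusted p = 0.233 for Mafk in DKO tumors against wild-type livers).

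Other genes of the pathway were read from lists of related enzymes. Of 24 tested other NRF2 targets 0 passed in any comparison. Their median log2 changes were −0.25 in DKO tumors against wild-type livers, −0.06 in DKO tumors against DKO livers and −0.16 in DKO livers against wild-type livers. In the first comparison 4 of these 24 targets had an unadjusted limma p under 0.05, beside 19.2% of all tested genes. By the mean over all 12 libraries the most abundant were Fth1 and Ftl1, the ferritin heavy and light chains, at 1387 ± 536 and 177 ± 126 RPKM in DKO tumors, 1306 ± 469 and 370.2 ± 181 RPKM in DKO livers, and 1367 ± 298 and 331 ± 144 RPKM in wild-type livers (SD, n = 4 each); both have pseudogene copies. Of 21 glutathione S-transferases 0 passed, and their median in DKO tumors against wild-type livers was −0.16. There 6 of the 21 had an unadjusted limma p under 0.05. Of the 21 transferases 4 were lower without overlap, as were 6.32% of all tested genes, and 1 was higher. The most abundant, Mgst1, was at 2041 ± 850 RPKM in DKO tumors, 2802 ± 1024 RPKM in DKO livers and 4369 ± 654 RPKM in wild-type livers, with all DKO tumors below all wild-type livers (log2 change −1.17, limma adjusted p = 0.0863). Gsta3 averaged 1147 ± 491 RPKM in DKO tumors, 1071 ± 375 RPKM in DKO livers and 1189 ± 219 RPKM in wild-type livers, with overlapping groups.

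In the list of glutathione synthesis and use, 1 of 17 tested genes fell and 0 rose in DKO tumors against wild-type livers. Over all tested genes 0.67% fell and 1.23% rose there. The list median was −0.48, and the median of all tested genes −0.02. At an unadjusted limma p under 0.05 there were 7 of the 17, beside 19.2% of all tested genes. The gene that fell was Gnmt, glycine N-methyltransferase, which spends S-adenosylmethionine rather than making glutathione. It was at 247, 151, 365 and 295 RPKM in DKO tumors 1 to 4, 1066, 881, 501 and 508 RPKM in DKO livers 1 to 4, and 1052, 792, 726 and 776 RPKM in wild-type livers 1 to 4. Every DKO tumor was below every other library. Its log2 change was −1.71 against wild-type livers (SE 0.31, limma adjusted p = 0.0215) and −1.47 against DKO livers (SE 0.31, adjusted p = 0.0749). Of 15 thioredoxin, peroxiredoxin and peroxide removal genes 0 passed, with a median of −0.50 in DKO tumors against wild-type livers. There 6 of the 15 had an unadjusted limma p under 0.05, and 2 had higher fitted levels. Of the 15 genes 5 were lower without overlap, as were 6.32% of all tested genes. Among them catalase, Cat, averaged 695 ± 154 RPKM in DKO tumors, 964 ± 325 RPKM in DKO livers and 1344 ± 267 RPKM in wild-type livers (SD, n = 4 each), with all DKO tumors below all wild-type livers (−0.95, limma adjusted p = 0.087). Sod1 averaged 529.7 ± 217, 648 ± 221 and 789 ± 141 RPKM in the same groups (adjusted p = 0.307 for DKO tumors against wild-type livers).

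Lists next to Hmox1, Ugdh, Ephx1 and Slc7a11 in metabolism gave 1 further called gene. It was called in DKO tumors against wild-type livers, where 1.9% of all tested genes were called. Of 11 heme genes 0 passed (median −0.23 in DKO tumors against wild-type livers), and of 12 glucuronidation genes 0 passed (median −0.39). The median of all tested genes was −0.02. At an unadjusted limma p under 0.05 there were 1 of the heme genes and 6 of the glucuronidation genes, beside 19.2% of all tested genes. Alad and Alas1, early enzymes of heme synthesis, averaged 156 ± 93.3 and 118 ± 97.6 RPKM in DKO tumors, 146 ± 57.1 and 138 ± 98.7 RPKM in DKO livers, and 164 ± 37.3 and 187 ± 55.1 RPKM in wild-type livers. The glucuronosyltransferase gene Ugt2b36 was at 400.3 ± 125 RPKM in DKO tumors, 400.4 ± 114 RPKM in DKO livers and 622 ± 36.5 RPKM in wild-type livers (SD, n = 4 each). Its log2 change was −0.68 both in DKO tumors and in DKO livers against the shared wild-type livers (limma adjusted p = 0.177 and 0.349). Ugt1a9, which shares exons with other Ugt1a genes, averaged 416 ± 121 RPKM in DKO tumors, 379 ± 76.1 RPKM in DKO livers and 449.9 ± 56.1 RPKM in wild-type livers. Of 14 genes of the nuclear receptors CAR and PXR and of AhR, which also drive drug-metabolizing genes, 0 passed. At an unadjusted limma p under 0.05 there were 3 in DKO tumors against wild-type livers. Cyp3a11, a main target of PXR, was at 1634 ± 360 RPKM in DKO tumors, 863 ± 538 RPKM in DKO livers and 1886 ± 232 RPKM in wild-type livers. All DKO livers were below all wild-type livers for Cyp3a11 (log2 change −1.41, limma adjusted p = 0.291), as for 1.96% of all tested genes. Cyp2c29 was at 213 ± 134 RPKM in DKO tumors, 303 ± 171 RPKM in DKO livers and 813 ± 342 RPKM in wild-type livers (log2 change −2.11 in DKO tumors against wild-type livers, adjusted p = 0.073), and reads of this gene can be shared with related Cyp2c genes. Of 13 tested genes of the ATF4 amino acid response, which also drives Slc7a11, 1 rose and 0 fell in DKO tumors against wild-type livers, with a median of 0.48. It was the stress-response factor gene Atf3, at 3.24, 9.64, 7.19 and 18.2 RPKM in DKO tumors 1 to 4, 3.56, 2.47, 8.62 and 2.62 RPKM in DKO livers 1 to 4, and 0.507, 1.19, 2.55 and 0.960 RPKM in wild-type livers 1 to 4 (log2 change 2.07, SE 0.45, limma adjusted p = 0.0382). All DKO tumors were above all wild-type livers, and DKO tumor 4 was the highest library. Of the 13 tested ATF4 genes 7 had an unadjusted limma p under 0.05 in that comparison. There 3 were higher without overlap, as were 5.57% of all tested genes.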

How the data were processed

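Each deposited file holds 1 library with RPKM per RefSeq transcript; the unit is that of the authors' headers. Per the labels' protocols, RNA was selected for polyadenylation and sequenced from SOLiD libraries. Per the submitters' processing notes, BWA and mm9 were used. Versions, counting tool, strand and filters are not given in the sources used here, nor whether coordinates start at 0 or 1. Multiplying RPKM by exon length gave whole steps, within 0.05 of a read, for 99.99% or more of the 21247 transcripts in every library, from which reads and depth were recovered. At that depth 1 read in 2 kb of exon is 0.0313 to 0.0626 RPKM, which covers counting error only.

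For each of 19012 symbols (1520 with several transcripts) the longest transcript was kept. Group means were fitted to log2(RPKM + 1) over 12 libraries, using limma 3.58.1 (R 4.3.3), its trend option and robust shrinkage. The offset of 1 understates changes of low genes. Single values were tested by exact permutation with scipy 1.17.1 (Python 3.11.15). The fit was tested on simulated data with known changes. The labels do not say whether libraries of a group came from separate litters or runs, so p-values measure the spread between these libraries, which differed beyond counting noise in every pair.

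Members and lists were chosen with earlier results of these data known. Named genes are all members, 5 regulators, list genes past the threshold or else the 2 most abundant of a list, and the 5 genes most like Nqo1. Abcc4, Cyp2a5 and Akr1b8 were added after their values were seen. Same-numbered DKO tumors and DKO livers share an animal code in the headers, so a replicate block stands for the animal there; correlations of their deviations from the group means ran from 0.00285 to 0.368. Wild-type numbers pair with nothing. All 143 list entries and 47 of 48 markers matched a symbol. Promoters are from RefSeq, GRCm38.p6. Alternatives changed the scaling, pseudocount, filter, transcript, libraries, tag covariate, replicate block and test; the permutation test paired by animal was added after seeing the data.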

Additional observations from a re-analysis of the deposited data

Results flagged for a closer look

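In each group of 4 libraries, the highest and lowest were compared with the nearest other by Dixon's test at its 95% value. Of 30 such groups for the members and 60 for other named genes, 2 stood out, where chance gives about 1 in 20. Srxn1 was at 117 RPKM in DKO tumor 4, against 20.9 to 33.3 RPKM in the other DKO tumors. Mafk was at 4.88 RPKM in wild-type liver 1, against 2.21 to 2.59 RPKM in the other wild-type livers.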

How the results depend on the processing

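Alternatives gave 639 values for 27 member results. Of these 584 kept direction and side of the threshold, 9 passed it (all Osgin1) and 46 changed sign, none of the last with an adjusted p below 0.242. In DKO tumors against wild-type livers 1 member, Osgin1, was called with median-of-ratios scaling, quantile normalization, the pseudocount of 0.1, the 8 libraries alone or voom, and leaving out single libraries gave 0 to 1. In DKO livers against wild-type livers leaving out single libraries gave 0 to 1 (Osgin1 without DKO liver 4). No alternative called a member in DKO tumors against DKO livers. The replicate block called 0 members in each comparison. The block fits used only the 8 libraries of a comparison. Over all genes the block called 71 in DKO tumors against DKO livers, where the same 8 libraries without it gave 55 and all 12 gave 1. In DKO tumors against wild-type livers it called 128, against 303 for the 8 libraries without it and 216 for all 12. Wild-type numbers pair with nothing, so there the block does not stand for an animal. The 216 ranged from 3 with the tag covariate to 598 with median-of-ratios scaling. It was 37, 20 and 413 without DKO tumors 1, 2 and 3, and 21, 83 and 16 without wild-type livers 1, 2 and 4. Without DKO tumor 3 the count of 1 became 363, and the count of 0 in DKO livers against wild-type livers was at most 2. The median over the members in DKO tumors against DKO livers, −0.01, moved to 0.28 after quantile normalization and to 0.45 when DKO animals 1 and 2 were left out. Median-of-ratios scaling gave a median over all genes of 0.02 there, against −0.09. In DKO tumors against wild-type livers the members' median ranged from −0.10 to 0.27 when single libraries were left out. For Slc7a11 in DKO tumors against DKO livers, the exact permutation p was 0.0286 over free splits and 0.125 when paired by animal. The paired value is the smallest that 4 pairs can give, so the paired test cannot decide whether Slc7a11 differs. The causes were not tested.

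For DKO tumors against wild-type livers, signs changed for Gclm (0.0101 with median-of-ratios, 0.37 with quantile, 0.23 without animals 1 and 2) and Txnrd1 (0.0787 with quantile, 0.13 without animals 1 and 2). For DKO tumors against DKO livers they changed for Gclm (−0.26 with the tag), Txnrd1 (0.12 with median-of-ratios, 0.11 with quantile, 0.19 without animals 1 and 2) and Ephx1 (0.13 with median-of-ratios, 0.28 with quantile, 0.63 with the tag, 0.0153 with voom, 0.70 without animals 1 and 2). For DKO livers against wild-type livers they changed for Nqo1 (0.00546) and Gclc (−0.0270) without animals 1 and 2, Gclm (0.0601) and Txnrd1 (0.0948) with the tag or within L02, and Srxn1 (−0.0452) with median-of-ratios.

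Leaving out single libraries also changed signs. The ranges in DKO tumors against wild-type livers were −0.20 to 0.11 for Gclm, −0.11 to 0.0899 for Txnrd1, −0.0860 to 0.46 for Hmox1 and −0.19 to 0.77 for Ugdh. Those in DKO tumors against DKO livers were −0.0996 to 0.23 for Gclm, −0.14 to 0.12 for Txnrd1 and −0.57 to 0.40 for Ephx1. Those in DKO livers against wild-type livers were −0.20 to 0.16 for Nqo1, −0.0428 to 0.36 for Gclc, −0.24 to 0.0799 for Gclm, −0.12 to 0.0887 for Txnrd1, −0.19 to 0.31 for Srxn1 and −0.91 to 0.0574 for Ephx1. Depth limits Slc7a11, with 10 to 40 reads per library.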
